A study of Mus musculus with 55 samples.

Results

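Immature mouse neurons, kept for 7 days in vitro (7DIV), were stimulated with bicuculline together with 4-aminopyridine and compared with unstimulated (basal) neurons of the same age. The 6 stimulated libraries, 3 taken after 15 min and 3 after 180 min, and the 3 basal libraries were chosen by the stage and treatment in their labels, out of 28 libraries of the maturation experiment and 55 of the whole series. The cells came from cortex and hippocampus of CD1 embryos of mixed sex, with no genetic change named in the labels, and had not been silenced before stimulation. Bic stands here for 50 μM bicuculline plus 2.5 mM 4-aminopyridine. Comparison groups were 7DIV neurons depolarized with 55 mM KCl for 15 or 180 min, with 3 libraries each, and older neurons with 3 basal libraries, 2 after 15 min and 2 after 180 min of Bic. The older neurons are called 21DIV here, although their labels give 23 days. The labels name no unstimulated library of this experiment taken at 15 or 180 min. A change with time after handling therefore cannot be told apart from a response to Bic in comparisons with basal or between the times. The labels do not say whether replicates came from separate cultures or litters. The p-values therefore measure only a spread between libraries, which may be technical. Unless stated, that spread was estimated over all 28 libraries of the experiment and not over the compared groups alone.

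Bicuculline blocks GABA-A receptors, the chloride channels through which GABA inhibits mature neurons, and 4-aminopyridine blocks voltage-gated potassium channels that end an action potential. In a connected network the pair releases bursts of synaptic firing, and calcium entry then switches on immediate early genes through factors such as CREB and SRF that are already in the cell. In young neurons GABA can depolarize rather than inhibit, and synapses are still few. KCl depolarizes the membrane directly, without the need for synapses. The comparison asks which genes respond to a synaptic stimulus at a stage when the network is still being built.

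Neuronal genes were abundant in every library. The summed level of 8 neuron markers, among them Map2, Rbfox3, Snap25 and Tubb3, was between 4182 and 4637 CPM (counts scaled to the same library total) over the 9 libraries. Markers of astrocytes summed to 513 to 768 CPM in basal, 734 to 948 CPM after 15 min and 573 to 919 CPM after 180 min of Bic, and those of oligodendrocyte lineage cells to 469 to 955 CPM over all 9. Microglia markers stayed between 5.85 and 17.8 CPM and endothelial markers between 0 and 2.50 CPM. In bulk RNA such as this, fewer cells of a type cannot be told apart from less RNA per cell. Counts on genes ranged from 1659722 to 3664631 per library (median 2867836, n = 9). The sample code of basal replicate 2 begins with another letter than those of the other 7DIV libraries, and values that it sets are also given without it.

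No gene passed the threshold in response to Bic at 7DIV. Of 11746 genes tested, 0 (0%) reached both an adjusted p below 0.05 and a 1.5-fold change after 15 min, 0 (0%) after 180 min, 0 (0%) for the mean of both times and 0 (0%) for both times tested jointly, in the quasi-likelihood test of edgeR with p-values adjusted after Benjamini and Hochberg. The lowest adjusted p was 0.255 after 15 min, 0.541 after 180 min, 0.361 for the mean and 0.184 for the joint test. At an unadjusted p under 0.05 there were 793 genes after 15 min, 701 after 180 min, 748 for the mean and 846 for the joint test. The 793 genes split into 393 higher (3.35%) and 400 lower (3.41%), and the 701 genes into 314 higher (2.67%) and 387 lower (3.29%). The basal libraries are not needed to compare the times with each other, and there also 0 genes (0%) passed, with 808 at an unadjusted p under 0.05 and a lowest adjusted p of 0.0627.

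The count of 0 depended on the tool. The likelihood ratio test of edgeR called 5 genes after 15 min, 2 after 180 min, 3 for the mean and 32 jointly, and DESeq2 called 3, 0, 1 and 26. A fit without the filter on low counts called 28, 21, 33 and 93. After 15 min these were Fam184a, Mgat5, B230217O12Rik, Parp3 and Pcdhb2 by the likelihood ratio test and Fam184a, Mgat5 and Slc23a1 by DESeq2. After 180 min they were Cckbr, the cholecystokinin B receptor, and Trib3, and for the mean Fam184a, Parp3 and Spata31 by the likelihood ratio test and Slc23a1 by DESeq2. Cckbr, Parp3, Pcdhb2, Slc23a1 and Spata31 are named after their values were seen. By the likelihood ratio test the log2 fold change was 6.14 for Parp3 and -4.75 for Pcdhb2 after 15 min. It was -2.28 for Cckbr after 180 min and -6.74 for Spata31 for the mean. By DESeq2 that of Slc23a1 was -21.8 after 15 min and -11.2 for the mean. Between the times, 180 against 15 min, its value by DESeq2 was 21.2. Values this extreme are not read here as the size of a change, and whether they rest on few counts was not tested. No early transcription factor was among the calls of either tool against basal. Without the filter on low counts, Fosb was called lower for the mean (-0.76) and after 15 min (-1.27), and Fos higher after 180 min (0.71, adjusted p = 0.0363 in the quasi-likelihood test of edgeR). In fits of only the groups compared, 1 gene was called for the mean and after 15 min (Mfge8) and 1 after 180 min (Chac1). With each library left out in turn, the count stayed at 0 for the mean, the joint test and each time.

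The precision was moderate. The median standard error (SE) of a log2 fold change was 0.27 at both times, and the median absolute log2 fold change was 0.20 after 15 min and 0.19 after 180 min. The 95% interval of the change lay within 2-fold in both directions for 63.3% of genes after 15 min and 64.3% after 180 min. Changes larger than 2-fold were thus outside the interval for most, but not all, genes. With the same number of libraries, KCl at 180 min passed the threshold for 233 genes (1.98%) against the same 3 basal libraries, of which 123 were higher (1.05%) and 110 lower (0.936%). In 21DIV neurons Bic passed it for 6 genes (0.0511%) after 15 min and 1672 genes (14.2%) after 180 min, of which 868 were higher (7.39%) and 804 lower (6.84%).

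**Figure D1:**
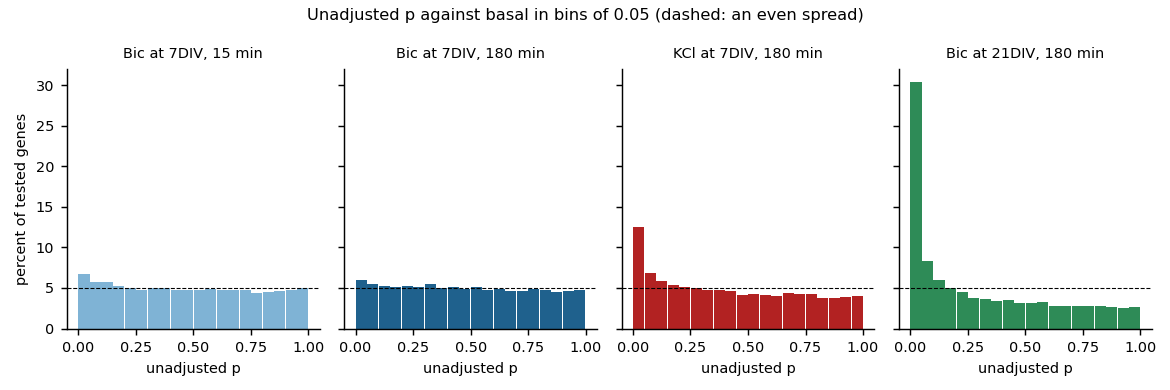
Histograms of unadjusted p-values in the quasi-likelihood test of edgeR over the 11746 genes tested, for Bic after 15 and 180 min and KCl after 180 min at 7DIV and Bic after 180 min at 21DIV, with the percent of genes per bin of 0.05 on the y axis and a dashed line at an even spread. The lowest bin holds 6.75% of genes for Bic at 15 min and 5.97% at 180 min at 7DIV, against 12.5% for KCl and 30.4% for Bic at 21DIV.

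The early transcription factors encode proteins that bind DNA within the first hours of activity, such as the AP-1 subunits Fos, Fosb and Junb, the neuron-restricted factor Npas4 and the orphan nuclear receptors Nr4a1 and Nr4a2. Of 28 listed, 26 passed the filter. Klf2 did not, and Egr2 was not analysed here. After 15 min, 0 passed the threshold, 8 had a positive and 18 a negative log2 fold change, and the median was -0.08, against a median of -0.00 over all genes. After 180 min again 0 passed, but 21 were positive and 5 negative, with a median of 0.33. Between the times, 24 were positive and 2 negative, with a median of 0.40. At an unadjusted p under 0.05, Fos and Per1 were higher and Klf10 lower after 180 min, against 2.67% and 3.29% of all genes.

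Fos (chromosome 12, 85473890 to 85477274 in GRCm38, the build of all positions given) was measured at 64.4, 71.2 and 77.2 CPM in basal, at 73.1, 81.1 and 58.0 CPM after 15 min of Bic and at 102, 144 and 97.1 CPM after 180 min. The 15 min libraries lay around the basal ones, and all 3 libraries at 180 min lay above them. The log2 fold change after 180 min was 0.69 (SE 0.28, 95% interval 0.12 to 1.25) with a Benjamini-Hochberg adjusted p of 0.736 in the quasi-likelihood test of edgeR. With KCl at 180 min Fos was measured at 288, 268 and 314 CPM, above every Bic library.

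Npas4 (chromosome 19, 4984353 to 5003439) was measured at 287, 473 and 443 CPM in basal, at 432, 508 and 449.9 CPM after 15 min of Bic and at 556, 662 and 466 CPM after 180 min. The lowest library at 180 min fell just under the highest basal one, so the groups overlapped. Its log2 fold change was 0.21 (SE 0.30) after 15 min and 0.49 (SE 0.30, adjusted p = 0.875) after 180 min. Npas4 is a factor whose transcription answers calcium influx and little else, and its basal level at 7DIV was already above that of Fos on the CPM scale. These are counts of 3′ ends, which do not scale with transcript length.

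Nr4a1 (chromosome 15, 101253902 to 101274795) was measured at 38.8, 59.5 and 50.7 CPM in basal, at 45.6, 56.0 and 42.7 CPM after 15 min and at 70.4, 77.3 and 67.1 CPM after 180 min. The 180 min libraries lay above every basal one, with a log2 fold change of 0.53 (SE 0.28, adjusted p = 0.832). Nr4a2 and Nfil3, a bZIP repressor that takes part in the circadian clock, also had all 3 libraries at 180 min above all 3 basal ones, with log2 fold changes of 0.50 (SE 0.27) and 0.44 (SE 0.30). These 4 of 26 factors (Fos, Nr4a1, Nr4a2 and Nfil3) compare with 5.94% of all genes whose libraries at 180 min lay wholly above basal and 5.77% wholly below, where no early factor was found. After 15 min no early factor lay wholly above basal (5.45% of all genes) and 1, Fosb, wholly below (6.08%).

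Fosb (chromosome 7, 19302696 to 19310118) shows how 1 basal library can set a value. It was measured at 175, 57.7 and 46.9 CPM in basal replicates 2, 3 and 4, at 31.7, 44.3 and 38.4 CPM after 15 min of Bic and at 80.3, 90.8 and 55.7 CPM after 180 min. Basal replicate 2 was at over 3 times the other basal libraries. The log2 fold change was -1.28 (SE 0.37, adjusted p = 0.463) after 15 min and -0.29 (SE 0.35, adjusted p = 0.941) after 180 min. Without basal replicate 2 it was -0.44 and 0.56, so that the direction at 180 min turned. Klf10, a TGF-β-induced factor, had the same high basal library, with 46.9 CPM in replicate 2 against 18.4 and 17.3 CPM in the others. Its log2 fold change after 180 min was -0.75, and -0.13 without basal replicate 2. Over the 26 factors, basal replicate 2 was the highest basal library in 12 (46.2%), against 33% of all genes.

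Most other members overlapped basal at both times. Junb was measured at 42.2, 31.9 and 27.6 CPM in basal, at 27.5, 42.6 and 29.2 CPM after 15 min and at 47.1, 49.7 and 41 CPM after 180 min, so that 1 library at 180 min lay within the basal range. Egr1, a zinc finger factor of plasticity, had log2 fold changes of 0.30 (SE 0.24) and 0.45 (SE 0.24). Klf4, the least abundant of those named, was measured at 1.42, 3.68 and 2.71 CPM in basal and at 3.76, 7.06 and 2.86 CPM after 180 min. Mafk, a small Maf protein that pairs with Fos and NRF2 relatives, had 7.31, 15.0 and 17.4 CPM after 15 min against 5.68, 4.91 and 7.86 CPM in basal, a log2 fold change of 1.03 (SE 0.37, adjusted p = 0.625).

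The intervals show which changes remain possible. After 15 min the upper 95% limit lay under 2-fold for 22 of 26 early factors and under 4-fold for 25, against 77.8% and 94.0% of all genes. After 180 min it lay under 2-fold for 13 and under 4-fold for 23, against 79.4% and 94.6%. The whole interval was within 2-fold for 16 of 26 after 15 min and 11 of 26 after 180 min. The summed level of the list was between 2281 and 2450 CPM in basal, 2206 and 2447 CPM after 15 min and 2564 and 3288 CPM after 180 min of Bic. With KCl at 180 min it was between 4441 and 6924 CPM.

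**Figure D2:**
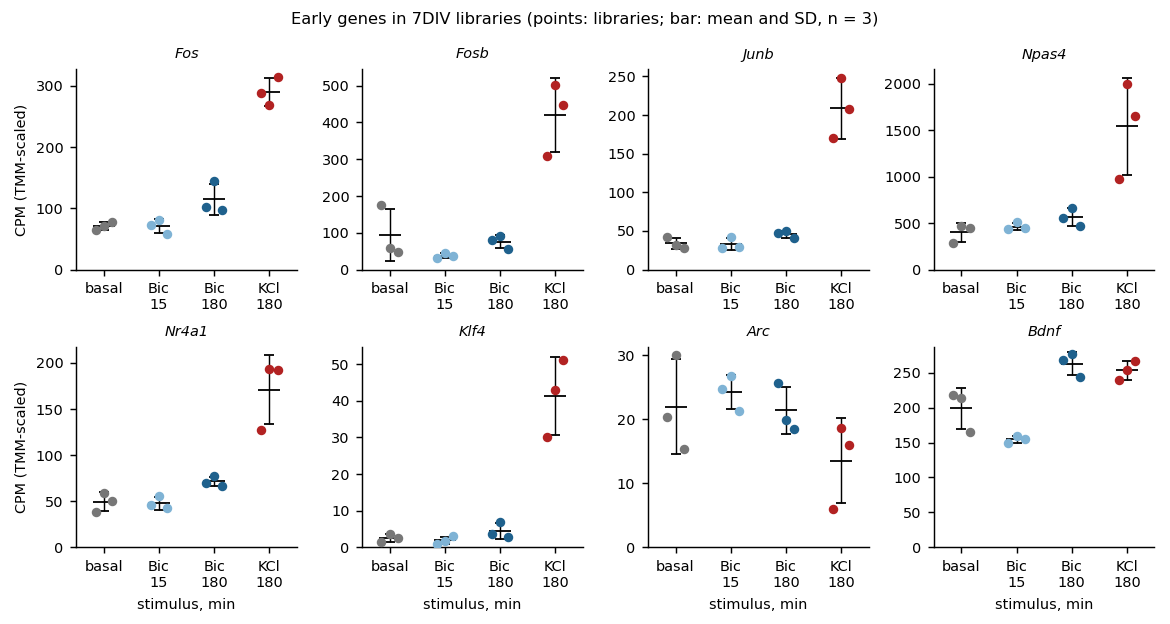
CPM of 8 activity-regulated genes in each 7DIV library (points) with the group mean and SD (bars), for basal, Bic 15 min, Bic 180 min and KCl 180 min, 3 libraries each. For Fos the Bic 180 min libraries sit between 97.1 and 144 CPM, above basal (64.4 to 77.2) and below KCl (268 to 314), and for Arc all groups lie at or under 30.1 CPM.

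**Figure D3:**
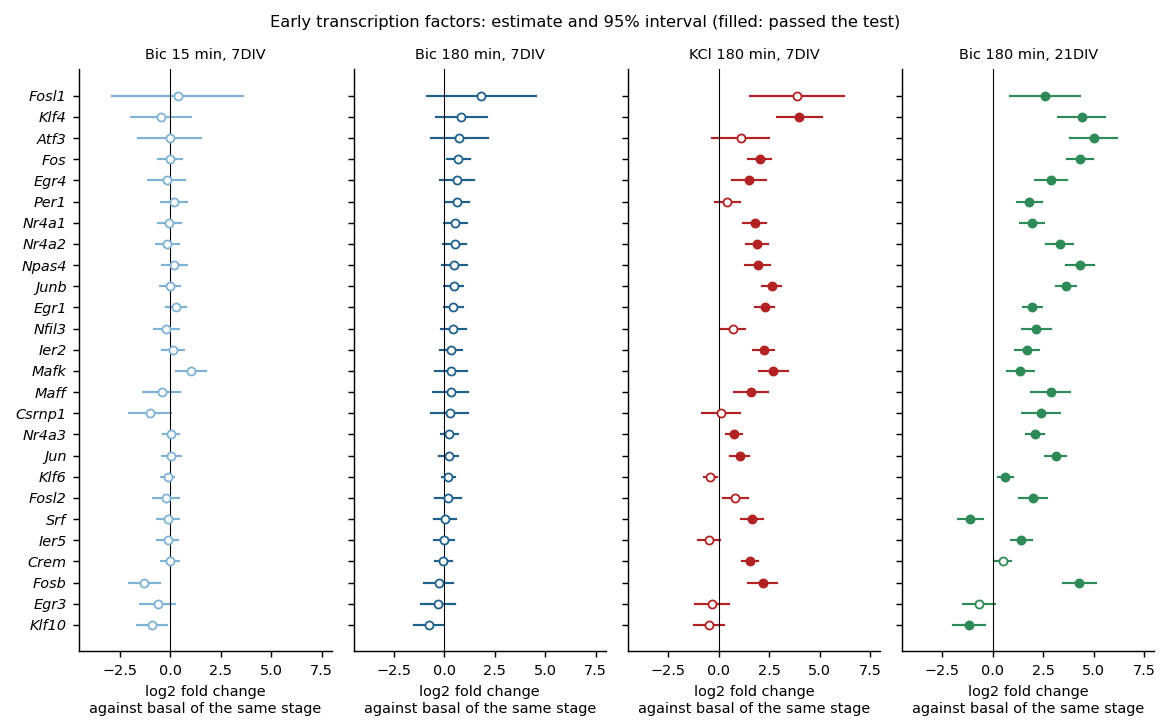
Log2 fold changes with 95% intervals of the 26 early transcription factors for Bic 15 min, Bic 180 min and KCl 180 min at 7DIV and Bic 180 min at 21DIV, with filled points for genes that passed the threshold. No point is filled in the 7DIV Bic panels, 16 are filled for KCl and 24 (22 higher, 2 lower) for Bic at 21DIV.

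The promoters of these factors were searched for the letters that CREB and SRF are known to bind. The windows held the 250 bases before the transcription start in RefSeq's annotation of GRCm38.p6, from 1 base before the start outwards. The core of the cAMP response element (CRE), TGACG or its reverse complement CGTCA, is in capitals in the following 4 promoters, printed 5′ to 3′ on the strand of the gene, at chr12:85473640-85473889 (Fos, plus strand), chr7:19310046-19310295 (Fosb, minus strand), chr19:4989972-4990221 (Npas4, minus strand) and chr15:101266596-101266845 (Nr4a1, plus strand). These genes were chosen because each stayed lower with Bic than with KCl, as described below.
Fos: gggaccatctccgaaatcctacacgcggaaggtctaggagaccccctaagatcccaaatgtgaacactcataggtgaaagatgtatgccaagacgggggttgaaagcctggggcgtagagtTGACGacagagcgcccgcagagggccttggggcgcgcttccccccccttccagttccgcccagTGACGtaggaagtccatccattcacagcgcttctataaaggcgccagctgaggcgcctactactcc
Fosb: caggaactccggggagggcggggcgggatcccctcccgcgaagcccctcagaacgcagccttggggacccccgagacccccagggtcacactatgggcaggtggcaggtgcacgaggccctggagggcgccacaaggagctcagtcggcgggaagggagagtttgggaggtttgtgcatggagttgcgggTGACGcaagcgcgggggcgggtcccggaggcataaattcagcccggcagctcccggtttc
Npas4: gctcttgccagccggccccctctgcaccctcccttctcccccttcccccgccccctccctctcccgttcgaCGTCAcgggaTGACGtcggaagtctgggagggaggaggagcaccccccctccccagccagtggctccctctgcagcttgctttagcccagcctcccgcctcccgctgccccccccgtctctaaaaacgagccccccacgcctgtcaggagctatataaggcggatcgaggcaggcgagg
Nr4a1: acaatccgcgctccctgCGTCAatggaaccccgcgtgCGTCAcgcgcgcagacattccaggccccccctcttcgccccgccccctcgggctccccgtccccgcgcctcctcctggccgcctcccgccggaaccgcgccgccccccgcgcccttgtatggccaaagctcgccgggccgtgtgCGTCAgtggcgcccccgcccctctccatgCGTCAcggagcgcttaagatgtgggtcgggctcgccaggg
Fos has the core at positions -129 to -125 and -66 to -62 from the start, Fosb once at -60 to -56, Npas4 at -179 to -175 and -169 to -165, and Nr4a1 4 times. Of the 12 factors lower with Bic than with KCl, 9 had a promoter that was used, and all 9 (Fos, Fosb, Junb, Klf4, Mafk, Npas4, Nr4a1, Nr4a2 and Srf) held the core. Of 10 factors with a promoter that did not pass in that comparison, 7 held it in at least 1 promoter. By promoter, the unit of the shares that follow, these were 12 of 16, and the former 9 of 9. Over all 32851 promoters of the same length the share was 17.8%, and over 12176 promoters of genes tested 27%. The full palindrome TGACGTCA, which contains the core on both strands, was in 0 of the 9, against 1.55% and 2.77%. The CArG box, which SRF binds, was in 1 of the 9, that of Srf itself, against 1.47% and 1.11%. Egr1, Crem and Ier2, also lower with Bic, were not searched, nor were sites beyond the 250 bases. The counts therefore do not say how common either site is among all these factors. Letters in a window are a description and not a bound site.

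Early effectors are proteins that act at synapses or in signalling soon after activity. Of 23 listed, 22 passed the filter, Amigo3 being the exception. After 15 min of Bic, 0 passed the threshold, with 9 positive and 13 negative and a median log2 fold change of -0.11. After 180 min, 0 passed, with 15 positive and 7 negative and a median of 0.09. Arc (chromosome 15, 74669081 to 74672570), which drives the removal of AMPA receptors from synapses, was measured at 20.4, 30.1 and 15.4 CPM in basal, at 24.7, 26.7 and 21.4 CPM after 15 min and at 25.6, 19.9 and 18.6 CPM after 180 min. All stimulated libraries lay within the basal range, and the log2 fold change after 180 min was 0.02 (SE 0.43, 95% interval -0.85 to 0.90).

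Bdnf (chromosome 2, 109674700 to 109727043), a neurotrophin, was measured at 217, 214 and 166 CPM in basal, at 150.0, 159.6 and 155 CPM after 15 min and at 268, 276 and 244 CPM after 180 min. The 15 min libraries lay below every basal library and the 180 min libraries above. The log2 fold change was -0.36 (SE 0.24) after 15 min and 0.41 (SE 0.23, adjusted p = 0.858) after 180 min, and between the times it was 0.76 (SE 0.23, adjusted p = 0.406). In a fit of the Bic libraries alone, the adjusted p between the times was 0.00771 for Bdnf and 0.0409 for Nfil3. Gadd45g, Plk2, Rgs2, Arl4d and Fbxo33 also lay wholly above basal after 180 min. With Bdnf these were 6 of 22 early effectors, and 0 lay wholly below, against 5.94% and 5.77% of all genes. After 15 min 0 lay wholly above and 3, Bdnf among them, wholly below, against 5.45% and 6.08%. Fbxo33, part of a ubiquitin ligase, had 26.5, 34.3 and 37.7 CPM in basal and 47.5, 44.5 and 56.0 CPM after 180 min, a log2 fold change of 0.57 (SE 0.18, adjusted p = 0.548).

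Inhibitors of the MAP kinase cascade, which are transcribed when the cascade is active, were 13 in the list and 12 in the test (Dusp5 did not pass the filter). After 180 min, 0 passed the threshold, with 8 positive and 4 negative and a median of 0.26, against 0.19 after 15 min. In this list 3 members were higher at an unadjusted p under 0.05, against 2.67% of all genes, namely Dusp2 (1.01, SE 0.43), Dusp6 (0.47, SE 0.16) and Spry4 (0.73, SE 0.35). Dusp6, the phosphatase of ERK, had 50.7, 50.3 and 55.8 CPM in basal and 77.9, 74.6 and 65.3 CPM after 180 min, with no overlap. It was 1 of 3 of the 12 members that lay wholly above basal, with 0 wholly below, against 5.94% and 5.77% of all genes. Of 20 late secreted and synaptic genes, all tested, 0 passed after 180 min, with 10 positive and 10 negative and a median of -0.00, against -0.12 after 15 min. Penk, the enkephalin precursor, had 27.5, 23.9 and 31.7 CPM in basal and 37.2, 42.0 and 46.4 CPM after 180 min, a log2 fold change of 0.57 (SE 0.22, adjusted p = 0.693).

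The genes of the ATF4 pathway had a median log2 fold change of 0.37 after 180 min, and of 0.30 to 0.48 under 15 other settings. ATF4 is a transcription factor made when translation is slowed by stress or lack of amino acids, and its targets take up and make amino acids or end the response. Of 20 listed, 19 were tested (Stc2 did not pass the filter). After 15 min, 7 were positive and 12 negative, with a median of -0.09. After 180 min, 0 passed the threshold, and 15 were positive and 4 negative. Between the times 18 were positive and 1 negative, with a median of 0.50, against -0.00 over all genes. After 180 min, 10 members lay wholly above basal and 1 wholly below, against 5.94% and 5.77% of all genes. At an unadjusted p under 0.05, 7 were higher and 1 lower, against 2.67% and 3.29% of all genes. Their summed level was 2577 to 2904 CPM in basal, 2479 to 2743 CPM after 15 min and 3478 to 3954 CPM after 180 min, with no overlap between 180 min and basal or 15 min. The summed level with KCl at 180 min was 2875 to 3928 CPM, with its lowest library within the basal range.

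Atf4 itself (chromosome 15, 80255184 to 80257545) was measured at 739, 684 and 609 CPM in basal, at 587, 666 and 651 CPM after 15 min and at 981, 1053 and 888 CPM after 180 min. Every library at 180 min lay above every other Bic or basal library. The log2 fold change after 180 min was 0.53 (SE 0.14, 95% interval 0.24 to 0.81, adjusted p = 0.541), and between the times 0.62 (SE 0.14, adjusted p = 0.131). The likelihood ratio test and DESeq2 called Atf4 between the times (adjusted p = 0.0319 and 0.0284), as they did Chac1, but neither tool called Atf4 at either time against basal.

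Chac1 (chromosome 2, 119351242 to 119354326), an enzyme that breaks down glutathione and an ATF4 target, was measured at 135, 137 and 124 CPM in basal, at 130.5, 104 and 148 CPM after 15 min and at 248, 264 and 244 CPM after 180 min. Every library at 180 min lay far above the basal and 15 min ranges, which overlapped. The log2 fold change was 0.94 (SE 0.24, 95% interval 0.45 to 1.42, adjusted p = 0.541). A fit of the basal and 180 min libraries alone gave it an adjusted p of 0.00268. Its promoter holds a C/EBP-ATF response element, TGATGNAA, which ATF4 binds, in the reverse orientation at -193 to -186, in capitals in the sequence at chr2:119350992-119351241, plus strand.
Chac1: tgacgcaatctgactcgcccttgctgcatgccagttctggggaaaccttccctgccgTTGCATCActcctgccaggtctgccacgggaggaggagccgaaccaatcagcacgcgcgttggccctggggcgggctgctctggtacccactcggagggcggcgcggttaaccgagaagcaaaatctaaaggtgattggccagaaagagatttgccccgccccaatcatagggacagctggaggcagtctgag
This element was in 3.45% of all promoters and 1.95% of those of genes tested, and it was not in the window of Trib3. The Chac1 window also begins with the letters of the CRE core, left in lower case here.

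Trib3 (chromosome 2, 152337425 to 152344060), a pseudokinase induced by ATF4 that curbs its activity, had few counts. It was measured at 0.474, 1.23 and 0.813 CPM in basal, which are 1 to 3 counts per library, at 4.18, 3.34 and 3.49 CPM after 15 min and at 5.12, 9.21 and 5.00 CPM after 180 min. Stimulated libraries lay wholly above basal at both times. The total count of 59 against 6 is a ratio of 8.13 after 180 min (95% counting interval 3.52 to 23.1), and that of 28 against 6 a ratio of 4.59 after 15 min (1.86 to 13.6), where the intervals cover counting error only. The adjusted p was 0.585 after 15 min and 0.541 after 180 min by the quasi-likelihood test, and 0.0125 after 180 min by edgeR's likelihood ratio test.

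Slc3a2, the heavy chain of several amino acid transporters, had 671, 653 and 612 CPM in basal and 881, 796 and 829 CPM after 180 min, a log2 fold change of 0.37 (SE 0.16, adjusted p = 0.797). Psat1, of serine synthesis, had 725, 704 and 658 CPM in basal and 947, 1071 and 838 CPM after 180 min, a log2 fold change of 0.45 (SE 0.15, adjusted p = 0.584). Shmt2, which passes the carbon of serine to folate in mitochondria, was named by its small p rather than by a list, with 416, 350.2 and 387 CPM in basal and 606, 621 and 491 CPM after 180 min (0.58, SE 0.14, adjusted p = 0.541). In Slc3a2 and Psat1 the groups did not overlap, and in Shmt2 the lack of overlap was part of its choice. Atf4 and Chac1, besides being in the list, were named by the same rule after 180 min, which asks for no overlap. Ddit4l, an inhibitor of mTORC1, went the other way between the times, with 6.61, 6.27 and 2.62 CPM after 15 min and 0, 0.921 and 0 CPM after 180 min, 40 counts in all against 3. Against basal, where it had 13 counts, its ratio after 180 min was 0.191 (95% counting interval 0.0349 to 0.695). Its log2 fold change between the times was -3.86 (SE 0.74, adjusted p = 0.0627).

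**Figure D4:**
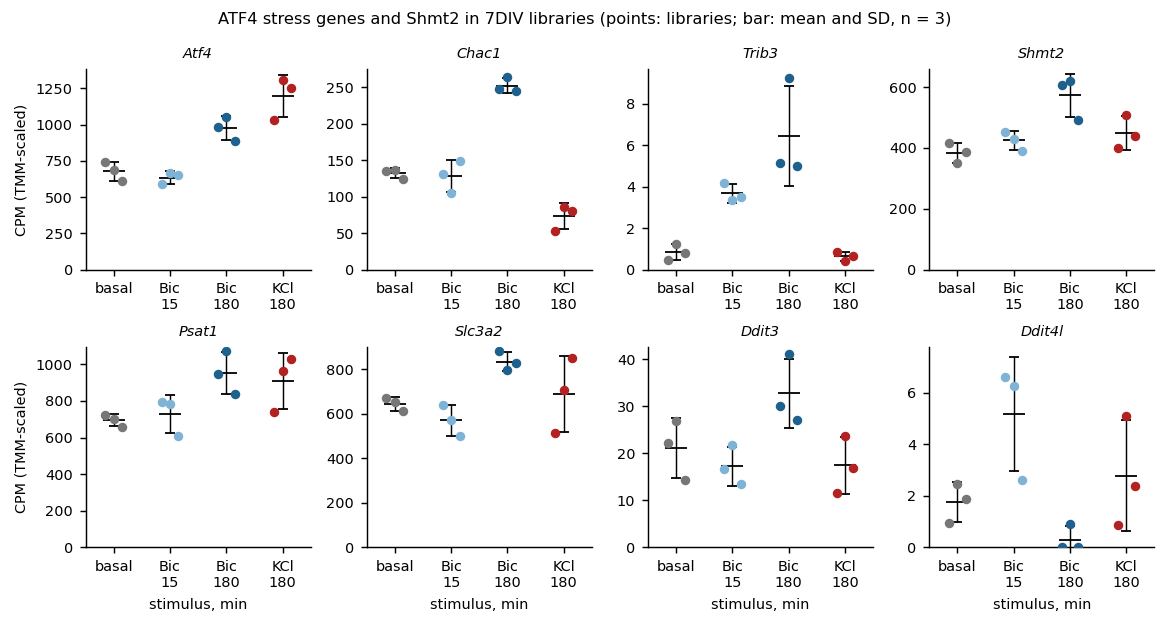
CPM of 7 genes of the ATF4 list and Shmt2 in each 7DIV library (points) with the group mean and SD (bars), for basal, Bic 15 min, Bic 180 min and KCl 180 min. Chac1 sits between 244 and 264 CPM after Bic 180 min, above basal (124 to 137) and above KCl (52.7 to 85.5), while the ranges of Atf4 with KCl (1031 to 1306) and with Bic (888 to 1053) overlap.

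The targets of the 2 drugs and the synaptic machinery were measured too. That 0 of their genes passed the threshold at either time follows from the count of 0 over all 11746 genes. GABA-A receptor subunits, the target of bicuculline, were 12 in the list and 11 in the test, with 1 positive and 10 negative after 15 min (median -0.08) and 2 positive and 9 negative after 180 min (median -0.13). Gabrb2 had a log2 fold change of -0.33 (SE 0.15, adjusted p = 0.824) after 180 min. Voltage-gated potassium channel genes, among which are the targets of 4-aminopyridine, had 13 positive and 9 negative after 15 min and 8 positive and 14 negative after 180 min, with medians of 0.09 and -0.04 over 22 of 24 genes.

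Ionotropic glutamate receptors (13 of 15 tested) had a median of -0.12 after 180 min, presynaptic release genes (18 of 19) -0.03 and genes of immature neurons (12 of 13) -0.01. In the presynaptic list 2 genes lay wholly below basal after 180 min and 0 wholly above, against 5.77% and 5.94% of all genes. Of these, the vesicle protein Sv2b had 22.3, 13.5 and 18.4 CPM in basal and 8.54, 8.59 and 9.64 CPM after 180 min. Its log2 fold change was -1.03 (SE 0.25, adjusted p = 0.541). Sv2b was also named by its small p, and the lack of overlap was part of that choice. Snap25, of the membrane fusion complex, had 599, 561 and 562 CPM in basal and 501, 442 and 529.7 CPM after 180 min (-0.22, SE 0.10, adjusted p = 0.797). Genes of GABA synthesis, transport and chloride balance (12 of 12) had 8 positive and 4 negative and a median of 0.13. Heat shock chaperones (11 of 14) had a median of 0.09, cholesterol synthesis genes (17 of 18) 0.01, Notch targets and ID factors (9 of 11) -0.02, and glycolysis and hypoxia genes (14 of 14) -0.05. In each, as over all genes, 0 passed the threshold.

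The genes with the smallest p-values for the mean of both times were of no single group. They were taken as the 5 higher and 5 lower genes of smallest unadjusted p among those of an average log2 CPM of at least 3 whose stimulated and basal libraries did not overlap. Mfge8 (chromosome 7, 79133768 to 79149060), a secreted protein that tags dying cells for uptake and is made by astrocytes, was measured at 270.5, 227 and 259.5 CPM in basal, at 439, 392 and 401 CPM after 15 min and at 397, 345 and 407 CPM after 180 min. All 6 stimulated libraries lay above all 3 basal ones. The log2 fold change was 0.65 (SE 0.15, 95% interval 0.35 to 0.95, adjusted p = 0.361), and the adjusted p was 0.0132 in a fit of the basal and Bic libraries alone. The summed level of 9 astrocyte markers, given above, also tended to be higher with Bic, with 6 positive and 3 negative members and a median of 0.15, and its part in this result was not tested. Mfge8 also passed the threshold with KCl at 180 min (382, 508 and 339 CPM, log2 fold change 0.70, adjusted p = 0.0226), against the same basal libraries.

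Fam184a (chromosome 10, 53633035 to 53751277) was measured at 33.2, 34.3 and 19.2 CPM in basal, at 10.4, 6.27 and 13.9 CPM after 15 min and at 16.7, 17.5 and 15.0 CPM after 180 min. All stimulated libraries lay below basal, with a log2 fold change of -1.13 for the mean (SE 0.25, adjusted p = 0.361) and -1.48 after 15 min (SE 0.30, adjusted p = 0.255). The likelihood ratio test gave adjusted p-values of 0.0340 and 0.0282 for these, and DESeq2 0.0658 and 0.0239. Mgat5, a Golgi enzyme that branches N-glycans, had 28.4, 34.3 and 41.7 CPM in basal and 63.0, 58.5 and 61.9 CPM after 15 min. The lack of overlap was part of its choice. Its log2 fold change after 15 min was 0.79 (SE 0.17), with an adjusted p of 0.255 by the quasi-likelihood test, 0.0311 by the likelihood ratio test and 0.0239 by DESeq2.

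The other genes named for the mean were higher for Jph4 (0.58, SE 0.14), which ties the endoplasmic reticulum to the plasma membrane of neurons, Ndufb7 (0.61, SE 0.15), of respiratory complex I, Ints9 (1.18, SE 0.30), of the Integrator complex, and Sfmbt1 (0.81, SE 0.20), and lower for Elmod1 (-0.48, SE 0.11), Mynn (-0.88, SE 0.20) and Dgkq (-0.70, SE 0.17), a diacylglycerol kinase. Jph4 had 629.5, 843 and 517 CPM in basal, 1129, 1004 and 963 CPM after 15 min and 900.4, 1076 and 868 CPM after 180 min. Each of these had an adjusted p of 0.361. After 180 min the rule added Mrps17 (0.87) and Sardh (1.68) among the higher and Ranbp10 (-0.83), Tns1 (-2.41) and Pomt2 (-1.29) among the lower. After 15 min it added Klhl26 (0.85) and Dnal1 (-1.31).

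Between the times, the rule named Ddit4l, Ppcs, B4galt5, Klhl24 and Tns1 as lower after 180 than after 15 min, each with an adjusted p of 0.0627. Klhl24, a ubiquitin ligase adaptor, had 114, 93.6 and 107 CPM after 15 min and 51.2, 61.7 and 50.0 CPM after 180 min, on either side of basal (67.3, 67.5 and 77.5 CPM), with a log2 fold change between the times of -0.95 (SE 0.19). B4galt5, a galactosyltransferase, had 43.5, 58.9 and 38.4 CPM after 15 min and 22.2, 28.9 and 18.9 CPM after 180 min (-1.0, SE 0.20). Among the higher genes, 1700086L19Rik had 11.8, 23.4 and 21.4 CPM after 15 min and 55.3, 42.0 and 38.2 CPM after 180 min (1.27, SE 0.24, adjusted p = 0.0627, and 0.00115 by the likelihood ratio test). Dnal1, of the axonemal dynein light chains, had 3.13, 4.60 and 6.54 CPM and then 13.7, 11.7 and 8.57 CPM (1.27, SE 0.28, adjusted p = 0.106). The rule also named Slc24a3, a potassium-dependent sodium-calcium exchanger (0.64, SE 0.14, adjusted p = 0.118), Atf4 and Pdk3, a pyruvate dehydrogenase kinase (0.94, SE 0.22, adjusted p = 0.131). By the likelihood ratio test 25 genes passed in this comparison, by DESeq2 17, and without Bic replicate 2 at 180 min 2 passed by the quasi-likelihood test (Ddit4l and Plec).

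**Figure D5:**
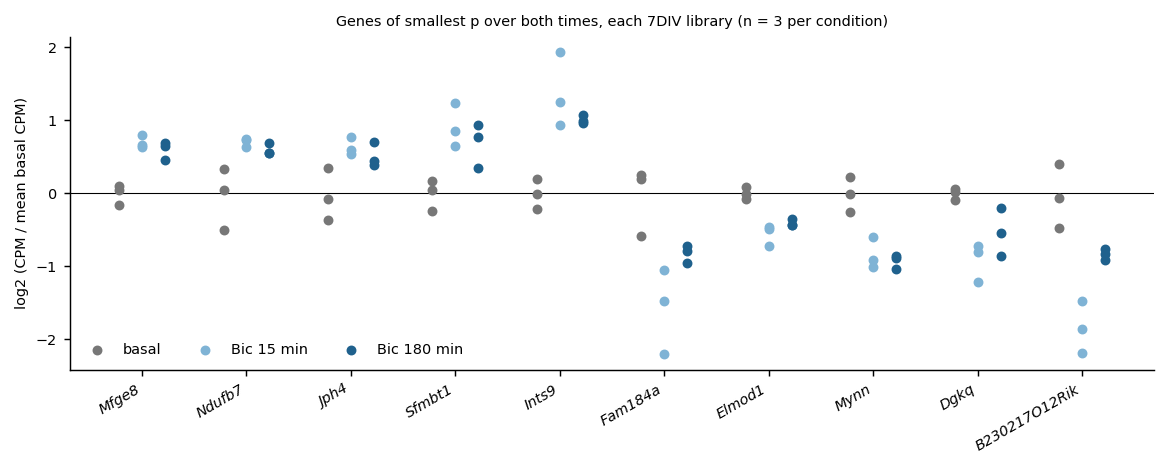
Log2 ratio of CPM to the mean of the basal libraries for the 10 genes named for the mean of both times, 1 point per library of basal, Bic 15 min and Bic 180 min at 7DIV. The genes were chosen for groups that do not overlap, so the gap between basal and stimulated points is part of the choice, and Mfge8 has a log2 fold change of 0.65 and Fam184a of -1.13.

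Bic was then set against KCl at the same stage and time, a comparison that uses no basal library. After 180 min the early transcription factors were lower with Bic than with KCl, while 2 of 19 ATF4 genes, 2 of 12 genes of GABA synthesis, transport and chloride and 1 of 9 Notch targets and ID factors were higher. Of all genes, 157 passed the threshold (1.34%), 55 higher (0.468%) and 102 lower (0.868%) with Bic. Of the 26 early factors, 12 were lower and 1 higher, and their median log2 fold change was -1.27, against 0.00 over all genes. After 15 min 0 genes (0%) passed in the quasi-likelihood test of edgeR, with 535 at an unadjusted p under 0.05, 0 by the likelihood ratio test and 2 by DESeq2, and the median of the early factors was 0.05. The count of 157 was 80, 100 and 83 without Bic replicates 1, 2 and 3, and 83 and 87 without KCl replicates 2 and 3. Under 15 other settings, these included, 10 to 17 early factors were lower.

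Junb (chromosome 8, 84976909 to 84978748) was measured at 169.8, 248 and 208 CPM with KCl, and its level with Bic was lower by 2.18 on the log2 scale (-2.18, SE 0.22, Benjamini-Hochberg adjusted p = 6.98e-07 in the quasi-likelihood test of edgeR). Klf4 (chromosome 4, 55527137 to 55532475) had 30.0, 43.0 and 51.2 CPM with KCl and the largest difference of the list (-3.16, SE 0.49, adjusted p = 0.000276). Fosb differed by -2.47 (SE 0.35, adjusted p = 6.01e-05), Mafk by -2.38, Ier2 by -1.89, Egr1 by -1.83, Srf by -1.64, Crem by -1.62, Npas4 by -1.46, Nr4a2 by -1.40, Fos by -1.34 (adjusted p = 0.00494) and Nr4a1 by -1.26. In Fos, Npas4 and Nr4a1, whose promoters are printed above, all KCl libraries lay above all Bic libraries. Klf6, a growth factor-responsive zinc finger gene, was higher with Bic (299.9, 319.5 and 275 CPM) than with KCl (162, 209 and 210.0 CPM), with a difference of 0.62 (adjusted p = 0.0363). It did not pass with any 1 of these 6 libraries left out (adjusted p 0.0620 to 0.177) nor with summed transcripts (0.0604).

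The responses of the early factors to both stimuli can be set side by side, although they share the 3 basal libraries. With KCl at 180 min 16 were higher and 0 lower than basal, with a median of 1.58, and with Bic 0 and 0, with a median of 0.33. At 15 min neither stimulus had a factor past the threshold, with medians of -0.24 for KCl and -0.08 for Bic. Among the early effectors 4 were lower with Bic than with KCl (Trib1, Arl5b, Coq10b and Fbxo33), with a median of -0.51 over the list. The 4 became 1 without KCl replicate 3 and 2 without KCl replicate 2, Bic replicate 2 or Bic replicate 3. Fbxo33 had 112, 118 and 127 CPM with KCl, a difference of -1.27 (SE 0.17, adjusted p = 2.72e-05). Arc was not among them, with 6.0, 18.7 and 15.9 CPM with KCl. Of the MAP kinase inhibitors 0 of 12 and of the late genes 0 of 20 passed between the stimuli, against 1.34% of all genes. In lists this short, a count of 0 does not set them apart from that share.

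Genes higher with Bic than with KCl included Chac1 (52.7, 85.5 and 80.7 CPM with KCl, difference 1.78, SE 0.25, adjusted p = 5.57e-05) and Trib3 (adjusted p = 0.00566, 59 against 5 counts in all, ratio 10.02, 95% counting interval 4.06 to 32). Atf4 itself did not differ in that direction, with -0.30 (SE 0.14, adjusted p = 0.395). Hes5, a Notch target of progenitors and glia, had 15.7, 15.7 and 12.5 CPM with Bic and 3.86, 3.40 and 0.678 CPM with KCl (2.52, SE 0.58, adjusted p = 0.0192). Gad1, which makes GABA, had 424, 365 and 416 CPM with Bic and 292, 192 and 239.8 CPM with KCl (0.74, SE 0.17, adjusted p = 0.0190), and Slc12a2, the importer that keeps chloride high in young neurons, had 86.4, 86.9 and 116 CPM against 63.0, 53.6 and 50.9 CPM (0.79, SE 0.16, adjusted p = 0.00732). Basal libraries held 9.95 to 20.9 CPM of Hes5, 339 to 387 CPM of Gad1 and 81.9 to 103 CPM of Slc12a2, so that for all 3 genes the KCl libraries lay below basal, while the Bic libraries overlapped it. For Chac1 the KCl libraries also lay below basal and the Bic libraries above it, so its difference of 1.78 spans both. The other large differences were Nefh (2.16), a neurofilament subunit, Suox (1.91) and Riox1 (1.80), higher with Bic, and Ppl (-2.96), Nfkbid (-2.71) and Zglp1 (-2.49), lower. Suox and Zglp1 each had 1 library apart from the rest, 22.2 CPM in Bic replicate 1 (the others 8.59 and 7.85) for Suox and 93.0 CPM in KCl replicate 1 (the others 18.7 and 18.3) for Zglp1. Lower with Bic were also 2 of 11 chaperones, Hspa1b (-1.02) and Dnajb1 (-0.86), against 0.868% of all genes. Of 17 cholesterol genes 4 were lower, among them Sc5d (-0.67) and Msmo1 (-0.60), and 0 higher. In that list 15 were negative and 2 positive, with values down to -1.31.

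Bic was last compared between stages, by a test of the difference in log2 fold change between 21DIV and 7DIV neurons in 1 fit. After 15 min 1 gene passed at an adjusted p under 0.05 (0.00851%), Junb, whose log2 fold change was greater at 21DIV by 2.06 (SE 0.34, adjusted p = 0.0170). After 180 min 582 genes passed (4.95%), 303 with a greater (2.58%) and 279 with a smaller (2.38%) log2 fold change at 21DIV. Of the 26 early factors 17 passed, all greater at 21DIV, and of 22 early effectors 10, with medians of 1.76 and 1.59. Without Bic replicate 2 at 21DIV, 8 early factors were greater and 1 smaller, and 1 early effector was greater. In 21DIV neurons alone, 22 early factors were higher and 2 lower with Bic after 180 min, with a median of 2.11. The count of 582 was 139 without Bic replicate 2 at 21DIV, which left 1 library in that group, assumed to vary like the others. It was 366 without Bic replicate 3 and 382 without basal replicate 2 at 7DIV, and 899, 342 and 323 without basal replicates 1, 2 and 3 at 21DIV. The count of 1 after 15 min became 0 without basal replicate 2 or Bic replicate 1 or 3 at 7DIV, or without basal replicate 2 or Bic replicate 1 or 2 at 21DIV, and 3 without basal replicate 4 at 7DIV.

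Basal levels also lay apart between the stages, which was not tested. Fos was measured at 21.6, 11.3 and 12.1 CPM in basal and 309.7 and 287 CPM after 180 min of Bic at 21DIV, a log2 fold change of 4.33 (SE 0.31), against 0.69 at 7DIV. The difference was 3.64 (SE 0.41, adjusted p = 5.41e-06). All basal 7DIV libraries, at 64.4 to 77.2 CPM, lay above the basal 21DIV ones. Npas4 had 106, 63.3 and 177 CPM in basal and 2259 and 2348 CPM with Bic at 21DIV, against 287 to 473 and 466 to 662 CPM at 7DIV, a difference of 3.82 (SE 0.45, adjusted p = 5.41e-06). Arc had 75.7, 80.7 and 98.8 CPM in basal and 421 and 308 CPM with Bic at 21DIV, all above every 7DIV library (difference 2.07, SE 0.56, adjusted p = 0.0274). Fosb differed by 4.56 (SE 0.53, adjusted p = 5.41e-06), which includes the high basal replicate 2 at 7DIV, and by 3.71 (adjusted p = 9.93e-06) without it. Bdnf did not pass (0.81, SE 0.34, adjusted p = 0.171). The ATF4 genes had 0 of 19 past the threshold between the stages, with log2 fold changes that had a median of 0.37 at 7DIV and 0.81 at 21DIV, where 10 were higher and 1 lower. The other large differences after 180 min were those of Emp1 (4.77), a membrane protein, the stress factor Atf3 (4.25) and Adm (3.96), the precursor of adrenomedullin, greater at 21DIV, and of A2m (-3.74), a protease inhibitor, Tmem255b (-3.51), Tgm3 (-3.50) and Ipcef1 (-3.35), smaller.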

How the data were processed

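Primary mouse neurons were profiled by CEL-Seq2, a 3′ RNA-seq method that tags 1 end of each transcript. The authors aligned reads to mm10 with STAR (version not given in the sources used here), used the End Sequence Analysis Toolkit to count them per RefSeq transcript, and the deposited values are these raw counts. Whether molecular identifiers were collapsed is not stated, so counting intervals cover counting error only. Of 97700 transcripts, 78905 (80.8%) matched a gene of the annotation used here, and unmatched ones held 18.5% of counts. Each of the 28492 genes took the counts of its transcript with the most counts, which avoids adding reads shared between transcripts. The test took the 11746 genes that exceeded 5 CPM (counts per scaled library total) in 2 samples or more.

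A single edgeR (4.0.16, R 4.3.3) quasi-likelihood fit with TMM scaling covered all 28 libraries of the experiment, with Benjamini-Hochberg adjustment. The threshold was an adjusted p below 0.05 together with a 1.5-fold change, or the adjusted p alone for stage differences. Standard errors were derived from the F statistic. CPM are TMM-scaled. No overlap means that every library of a group lies beyond every library of the other. Alternatives were edgeR's likelihood ratio test, DESeq2 (1.42.0) with its own size factors, RLE scaling, filterByExpr, no filter, the compared groups only, a replicate block, thinned counts, summed transcripts and leaving out each library.

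Genes were named as members of gene lists and as the 5 higher and 5 lower genes of smallest p with a mean log2 CPM of 3 or more and no overlap, for the mean, each time and 180 against 15 min. For the joint test they were the 5 of smallest p, and against KCl and between stages the 5 of largest change that passed in each direction. Members and lists were chosen with earlier results of these data known. Promoter windows came from RefSeq's annotation of GRCm38.p6, as did gene coordinates. Some results on single genes are not reported here.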

Additional observations from a re-analysis of the deposited data

Results flagged for a closer look

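The response to Bic differed between the stages by an interaction test in 1 fit of edgeR, for 1 gene after 15 min and 582 genes after 180 min. After 15 min the gene was Junb, whose log2 fold change at 21DIV exceeded that at 7DIV by 2.06. After 180 min the differences in log2 fold change (21DIV minus 7DIV) among the AP-1 subunits and their relatives were 3.64 for Fos, 4.56 for Fosb (3.71 without basal replicate 2 at 7DIV), 1.83 for Fosl2, 2.90 for Jun, 3.16 for Junb, 4.25 for Atf3 and 2.56 for Maff. Among the zinc finger factors and nuclear receptors they were 1.49 for Egr1, 2.25 for Egr4, 3.55 for Klf4, 1.41 for Nr4a1, 2.8 for Nr4a2 and 1.82 for Nr4a3. The other early factors had 3.82 for Npas4, 1.35 for Ier2, 1.42 for Ier5 and 1.70 for Nfil3.

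Among the early effectors the differences were 2.07 for Arc, 2.35 for Btg2, 2.90 for Gadd45b, 1.80 for Gadd45g, 2.89 for Ccn1, 1.81 for Rgs2, 1.72 for Ier3, 1.48 for Arl5b, 1.14 for Fbxo33 and 3.32 for Pim1. All were greater at 21DIV. The 7DIV and 21DIV groups differ in days in culture and in their basal levels, so that for Fos the mean was 70.9 CPM at 7DIV and 15.0 CPM at 21DIV in basal neurons and 115 and 298 CPM after 180 min of Bic. The part of the basal levels in these differences was not tested.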

How the results depend on the processing

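Against basal, the count of genes past the threshold was 0 under edgeR's quasi-likelihood test and moved under other tools. Given for the mean, the joint test, 15 min, 180 min and 180 against 15 min in that order, it was 3, 32, 5, 2 and 25 by the likelihood ratio test, 33, 93, 28, 21 and 56 with no filter on low counts, and 1, 2, 1, 1 and 6 in a fit of the compared groups only. DESeq2 gave 1, 26, 3 and 17, with 0 at 180 min. With summed transcripts it was 1 for the mean and 1 at 180 min (Aifm3 in both). Without a filter, 30 of 33, 89 of 93, 27 of 28 and 20 of 21 of the calls were of genes in the filtered table. Against KCl at 15 min DESeq2 gave 2 and no filter 17, and at 180 min the likelihood ratio test gave 290 and no filter 311. For the stage difference at 15 min the count of 1 became 7 (likelihood ratio test), 5 (DESeq2), 23 (no filter), 0 (compared groups only), 2 (thinned counts) and 0 (summed transcripts). The causes were not tested.

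With 1 library left out, the count stayed at 0 to 0 for the mean, the joint test, 15 min, 180 min and against KCl at 15 min. It was 0 to 2 for 180 against 15 min, 80 to 124 against KCl at 180 min, 0 to 3 for the stage difference at 15 min and 139 to 899 at 180 min. The median of the early factors lay between -0.17 and 0.02 after 15 min and between 0.24 and 0.50 after 180 min, and that of the ATF4 genes after 180 min between 0.30 and 0.48, over 15 settings each. Of 937 values of single genes under an alternative, 892 kept their side of the threshold and moved by less than the replicate spread where untested, 24 moved and 21 came to pass. Among those that moved, the value of Fosb at 180 min, which did not pass, turned from -0.29 to 0.56 without basal replicate 2, and that for the mean from -0.78 to 0.06.

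Same-numbered libraries did not deviate together (0 of 7 pairs with a correlation above 0.1, -0.028 to 0.014), so the numbers were not taken as pairs. With a replicate block the stage difference had 3 genes at 15 min and 300 at 180 min, where 11 early factors were greater and 1 smaller, and 5 early effectors and 2 late genes were greater, in place of 17, 10 and 5. No other count over all genes moved by over 1.5 times. Depth, at 1659722 counts for the smallest of the 9 libraries, and 3 libraries a group limit what low genes can show.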
